A study of Mus musculus with 9 samples.

Results

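*Ctcf*, the cohesin ring and its regulators were followed as RNA in embryonic mouse hearts from which *Ctcf* had been deleted. The 9 genes were taken by name as the zinc finger factor *Ctcf*, the ring subunits *Smc1a*, *Smc3* and *Rad21*, the STAG subunits *Stag1* and *Stag2*, the loader *Nipbl* and the regulators *Pds5a* and *Pds5b*, and all 9 were found among the 14011 genes of the deposited table. In homozygotes *Ctcf* RNA was at 67.0% of the control level, *Stag1* had risen to 144%, *Nipbl* and *Pds5a* were at 76.8% and 85.2%, and no difference from controls was called for the 3 ring subunits, *Stag2* or *Pds5b*. Heterozygotes had *Nipbl* and *Pds5a* at 78.5% and 83.2% of controls, which was not called. Neither gene was called between homozygotes and heterozygotes.

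CTCF binds DNA through a row of zinc fingers at a long motif and holds the edges of chromatin loops. Cohesin is a ring of SMC1A, SMC3 and RAD21 with 1 STAG protein on it, which is loaded by NIPBL, extrudes chromatin into loops and also holds sister chromatids together. CTCF stops the moving ring partly through its contact with the STAG subunit, and PDS5 proteins regulate the stability of the ring on chromatin.

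RNA-seq was carried out on 9 libraries from hearts at E10.5, with 3 libraries in each of 3 genotypes, and each library was a pool of 6 hearts on a mixed strain background. Homozygotes were *Ctcf* fl/fl with *Nkx2.5-Cre*, and heterozygotes carried 1 floxed *Ctcf* allele with the same driver, which acts in cardiac progenitors from the cardiac crescent onward and leaves *Ctcf* intact in cells of other origin. Controls lacked the driver, and are given as *Ctcf* fl/fl in the sample labels and as *Ctcf* fl/+ where the study describes its RNA-seq. A comparison with controls therefore includes the driver, and homozygotes against heterozygotes is the comparison in which both groups carry it. Columns named Het in the table held the controls and columns named DH the heterozygotes, as set out with the processing.

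The deposited values were reads with 0.5 added, scaled to a common effective library size (referred to here as normalized values). Values are given below in the order of the libraries, which for controls held 8457617, 9654014 and 6698891 reads. Heterozygous libraries followed with 9896345, 7946683 and 4294537 reads, and homozygote replicates 1, 2 and 3 with 4437234, 6139084 and 11629365. The 9 genes had between 350 and 3829 reads in a library, so counting error alone gave a coefficient of variation of at most 5.35%. Their mean normalized value was at least 100.1, above that of 85.6% of all genes. Nothing in the labels says whether the pools came from separate litters, so the tests measure the spread between pools. The 11 cardiomyocyte markers had a summed value of 21343 to 24197 in controls, 24090 to 27795 in heterozygotes and 20439 to 24063 in homozygotes. Of these *Myl4* was called higher and *Nppa* and *Ryr2* (log2 fold change -1.13) lower in homozygotes against controls, and *Myh6*, *Myh7*, *Nppa* and *Ryr2* lower against heterozygotes. Of 7 endothelial and endocardial markers, *Emcn* was called higher and *Kdr* and *Npr3* lower against controls, and of 4 macrophage markers *Lyz2* was called lower. All 7 erythroid markers were called higher in homozygotes than in controls, where 7.19% of all genes were called higher and 8.03% lower, by 0.61 to 0.80 on the log2 scale, and by 0.83 to 1.00 against heterozygotes, where 6.87% were called higher and 6.70% lower. Their summed value was 31756 to 46258 in controls, 25544 to 43207 in heterozygotes and 56744 to 75049 in homozygotes. Of 5 epicardial markers 3 were called higher in homozygotes, both against controls and against heterozygotes, with a summed value of 372.3 to 429.0 in controls and 496.2 to 564.7 in homozygotes. Of 5 cushion mesenchyme markers 2 were called lower in both comparisons, with a summed value of 1186 to 1364 in controls and 689.1 to 956.3 in homozygotes. Markers of liver and endoderm were uneven between pools, with a summed value of 60.3 to 918.9 in controls, 6.34 to 16.0 in heterozygotes and 6.35 to 73.8 in homozygotes and 0 of 5 called by limma in any comparison. An unadjusted p under 0.05 was found for 2 of them between homozygotes and controls, 1 between homozygotes and heterozygotes and all 5 between heterozygotes and controls, beside 29.6%, 27.6% and 7.37% of all genes. Between heterozygotes and controls their median log2 fold change was -2.72 and 3 lay below the controls without overlap, as did 6.93% of all genes. The part of these cell types in the results below was not tested.

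Among the 9 genes *Stag1* is the paralogue of *Stag2* and *Pds5a* that of *Pds5b*, and reads of one could be counted for the other if their sequences were too alike. The most alike 60-base windows of their coding sequences on NCBIM37 are shown for this reason, with the bases that differ within the pair in capitals. The *Stag1* window lies in exon 26 of 34 at chr9:100843087-100843146 and the *Stag2* window in exon 26 of 34 at chrX:39611233-39611292, both on the plus strand. The *Pds5a* window lies in exon 5 of 32 at chr5:66055129-66055188 on the minus strand, and the *Pds5b* window in exon 5 of 35 at chr5:151525057-151525116 on the plus strand.
Stag1: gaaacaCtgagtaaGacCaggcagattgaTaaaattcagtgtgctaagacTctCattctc
Stag2: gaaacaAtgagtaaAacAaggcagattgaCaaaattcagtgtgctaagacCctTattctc
Pds5a: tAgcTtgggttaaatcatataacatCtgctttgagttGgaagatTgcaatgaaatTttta
Pds5b: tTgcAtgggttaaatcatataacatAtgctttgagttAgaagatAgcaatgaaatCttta
Even in these windows 6 of the 60 bases differed, and the longest identical run anywhere in the aligned coding sequences was 23 bases for both pairs. Identity over the whole coding sequence was 70.1% for *Stag1* and *Stag2* and 68.7% for *Pds5a* and *Pds5b*. No stretch of 50 bases was shared with another annotated gene by *Ctcf*, *Rad21*, *Smc1a*, *Stag2*, *Nipbl* or *Pds5a*, while 0.776% of the stretches of *Smc3*, 0.0376% of those of *Stag1* and 0.0953% of those of *Pds5b* were. None of the 9 genes shared an exonic base with another annotated gene.

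*Ctcf* (ENSMUSG00000005698, chr8:108160468-108206822) is the deleted gene and was examined first. Normalized values were 120.5, 122.1 and 121.7 in controls, 100.7, 94.2 and 97.0 in heterozygotes and 79.6, 80.0 and 84.7 in homozygotes. The 3 genotypes did not overlap, with every heterozygote below every control and every homozygote below every heterozygote. In bulk libraries fewer cells with a transcript and less transcript per cell cannot be told apart, and the values cover the whole gene without separating floxed exons from others. *Ctcf* was lower in homozygotes than in controls by a log2 fold change of -0.57 (SE 0.06, limma adjusted p = 2.91e-05) and lower than in heterozygotes by -0.26 (SE 0.06, limma adjusted p = 0.00968). Both calls were made under each of 20 alternative settings. The heterozygotes were at 80.1% of controls (log2 fold change -0.32, SE 0.06, limma adjusted p = 0.0467), a call close to the threshold that was made under 5 of 20 alternatives, with adjusted p from 0.0284 to 0.269. It was lost on leaving out any 1 of the 9 libraries, with the fold change between -0.34 and -0.30.

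**Figure D1:**
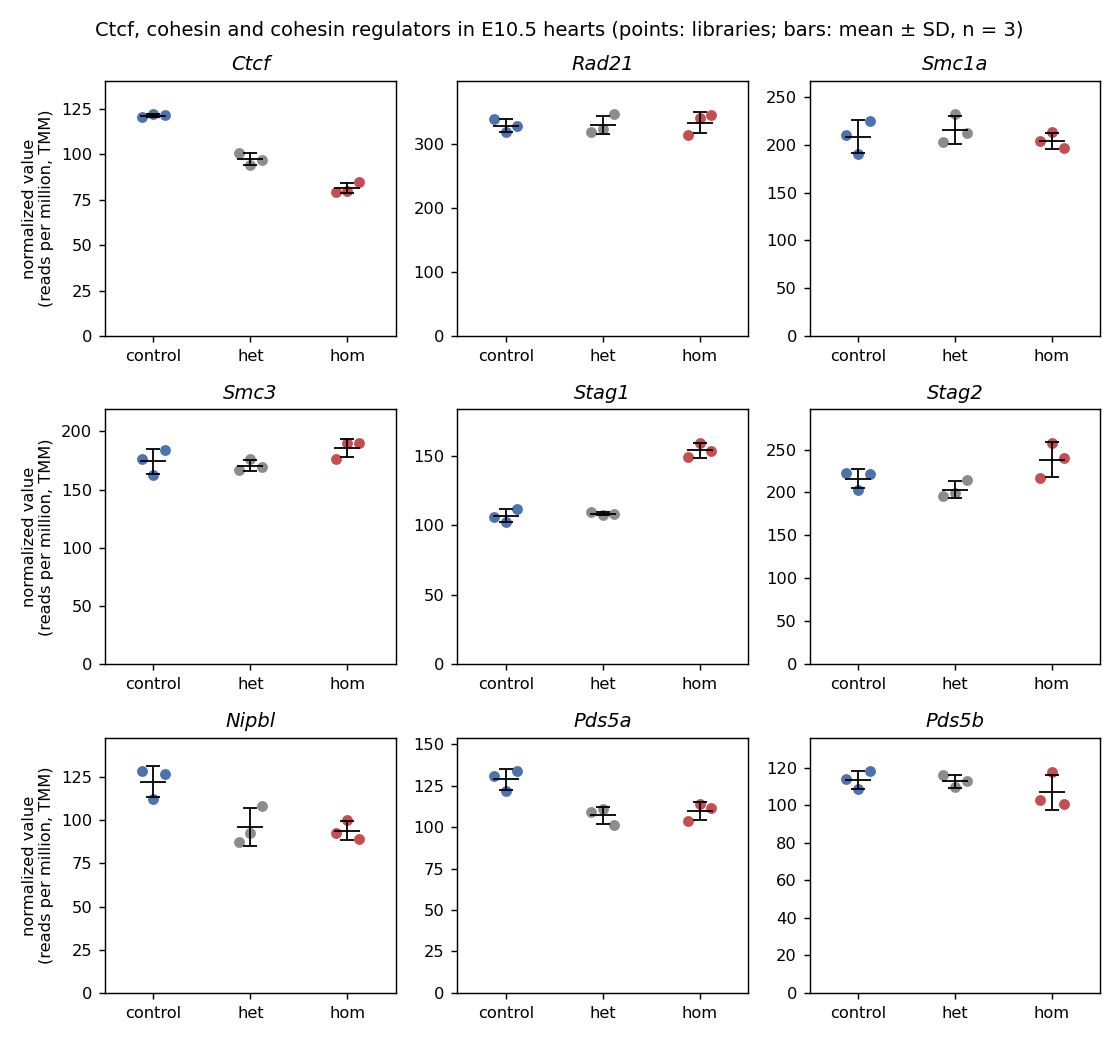
Normalized value (y axis from 0) of the 9 genes in 3 control, 3 heterozygous (het) and 3 homozygous (hom) libraries, with a point for each library and bars for the mean and SD. *Ctcf* steps down from 121.5 to 97.3 to 81.4, *Stag1* is high in homozygotes alone at 154.1, and every library with the driver lies below the controls for *Nipbl* and *Pds5a*, a difference called for homozygotes and not for heterozygotes.

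The ring subunits came next. *Smc1a* and *Smc3* encode the long coiled-coil arms and *Rad21* the kleisin that closes the ring and is cut at anaphase. *Rad21* (ENSMUSG00000022314, chr15:51794151-51823306) had values of 338.9, 319.1 and 328.0 in controls, 318.8, 323.6 and 346.4 in heterozygotes and 314.4, 340.3 and 344.9 in homozygotes. These overlapped in all comparisons, and the 95% interval of the log2 difference between homozygotes and controls ran from -0.10 to 0.14.

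*Smc1a* (ENSMUSG00000041133, chrX:148450971-148497237) had values of 210.8, 190.5 and 224.6 in controls, 203.0, 232.1 and 212.8 in heterozygotes and 203.8, 213.2 and 196.4 in homozygotes. They also overlapped throughout, with an interval of -0.18 to 0.12 for homozygotes against controls and -0.23 to 0.07 against heterozygotes. For *Smc3* (ENSMUSG00000024974, chr19:53674886-53720323) the values were 176.7, 162.9 and 183.8 in controls, 166.6, 176.0 and 169.4 in heterozygotes and 176.6, 190.2 and 190.3 in homozygotes. The homozygotes lay above every heterozygote but overlapped the controls. The interval was -0.04 to 0.22 against controls and -0.01 to 0.25 against heterozygotes (log2 fold change 0.12, limma adjusted p = 0.212). For these 3 subunits the intervals of homozygotes against controls thus exclude a fall as large as that of *Ctcf*.

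*Stag1* and *Stag2* encode alternative subunits, of which a ring carries 1, that contact CTCF. *Stag1* (ENSMUSG00000037286, chr9:100498217-100858964) had values of 106.1, 102.8 and 112.2 in controls, 109.5, 107.8 and 108.5 in heterozygotes and 149.1, 159.5 and 153.7 in homozygotes. All homozygotes were above all other libraries, while heterozygotes and controls overlapped. The rise was 0.52 on the log2 scale against controls (SE 0.06, limma adjusted p = 5.89e-05) and 0.50 against heterozygotes (SE 0.06, limma adjusted p = 0.000119), and both were called under all 20 alternatives. Heterozygotes against controls gave 0.02, with a 95% interval of -0.10 to 0.14.

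*Stag2* (ENSMUSG00000025862, chrX:39502494-39630362) had values of 223.2, 203.1 and 221.1 in controls, 196.3, 198.9 and 215.1 in heterozygotes and 217.0, 257.8 and 240.0 in homozygotes. The homozygotes overlapped the controls and lay just above every heterozygote. Against heterozygotes the log2 fold change was 0.23 (SE 0.07, limma adjusted p = 0.0475), and this was called under 8 of 20 alternatives. The call was lost without any 1 of the 3 control or 3 heterozygous libraries or homozygote replicates 2 or 3, with adjusted p of 0.0501 to 0.160. It was also lost under quantile normalization (limma adjusted p = 0.0563), with only the 2 genotypes in the fit (0.0639), with a replicate block (0.0724) and without the trend (0.134). Against controls the difference was 0.14 (95% interval -0.01 to 0.29, limma adjusted p = 0.197).

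The balance within the STAG pair was compared inside each library, where scaling cancels. The log2 difference *Stag2* minus *Stag1* was 1.01 ± 0.05 in controls, 0.90 ± 0.07 in heterozygotes and 0.62 ± 0.08 in homozygotes (SD, n = 3). It was smaller in homozygotes by 0.38 than in controls and by 0.28 than in heterozygotes, without overlap in either case (two-sided exact permutation p = 0.1 for both, the smallest that 3 against 3 allows, and 0.15 after adjustment over 6 pair comparisons). Exonic length counts the merged exons of all annotated transcripts of a gene, so values per kb depend on the annotation. Per kb of this length, *Stag1* made up 28.6 ± 0.75% of the sum of both genes in controls, 30.1 ± 1.08% in heterozygotes and 34.3 ± 1.21% in homozygotes (SD, n = 3). The summed value per kb was 36.5, 35.2 and 43.8 in the 3 genotypes, so the larger share of *Stag1* came with a larger total.

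*Nipbl* encodes the subunit that loads cohesin and stimulates loop extrusion, and loss of 1 copy causes Cornelia de Lange syndrome in humans, with heart defects among its features. *Nipbl* (ENSMUSG00000022141, chr15:8241225-8394463) had values of 128.3, 112.0 and 126.7 in controls, 87.2, 92.7 and 108.3 in heterozygotes and 92.5, 100.1 and 89.1 in homozygotes. Both groups with the driver lay below every control and overlapped each other. The log2 fold change was -0.38 in homozygotes against controls (SE 0.08, limma adjusted p = 0.00940), called under 19 of 20 alternatives and lost without limma's trend (adjusted p = 0.0532). Heterozygotes differed from controls by -0.35 (SE 0.08, unadjusted p = 0.00101, limma adjusted p = 0.197), which was not called. Homozygotes against heterozygotes gave -0.03, with a 95% interval of -0.21 to 0.15.

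PDS5A and PDS5B bind the ring and act both in its release and in its maintenance on chromatin. *Pds5a* (ENSMUSG00000029202, chr5:66006499-66089095) had values of 131.0, 121.9 and 133.8 in controls, 109.0, 111.1 and 101.6 in heterozygotes and 103.9, 114.2 and 111.5 in homozygotes. As with *Nipbl*, the 2 groups with the driver overlapped and both lay below the controls. The log2 fold change was -0.23 in homozygotes against controls (SE 0.06, limma adjusted p = 0.0257). It was called under 14 of 20 alternatives and lost without the control library of 8457617 or 6698891 reads (adjusted p = 0.0772 and 0.106) or without homozygote replicate 1 or 3 (0.0801 and 0.0549). The call was also lost with a replicate block (limma adjusted p = 0.0551) and without limma's trend (0.0794). The heterozygotes differed from controls by -0.26 (SE 0.06, unadjusted p = 0.000949, limma adjusted p = 0.197), which was not called, and homozygotes from heterozygotes by 0.03 (95% interval -0.10 to 0.17). For *Nipbl* and *Pds5a*, the deletion of an allele and the presence of the driver cannot be told apart in the comparisons with controls.

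*Pds5b* (ENSMUSG00000034021, chr5:151476314-151613265) had values of 113.7, 108.7 and 118.0 in controls, 116.3, 109.4 and 112.7 in heterozygotes and 102.8, 117.5 and 100.4 in homozygotes. The genotypes overlapped, and the interval of homozygotes against controls was -0.23 to 0.06. Within libraries, *Pds5b* minus *Pds5a* was -0.18 ± 0.02 in controls, 0.07 ± 0.09 in heterozygotes and -0.04 ± 0.10 in homozygotes on the log2 scale (SD, n = 3). The controls lay apart from both other groups, by 0.26 for heterozygotes and 0.14 for homozygotes, the latter 0.264 with the length trend removed (two-sided exact permutation p = 0.1 for both, adjusted p = 0.15), whereas homozygotes and heterozygotes differed by -0.12 (exact permutation p = 0.3). *Pds5a* made up 71.96% of the pair per kb in controls, 68.2% in heterozygotes and 69.9% in homozygotes, and the summed value per kb was 43.1 in controls and 37.8 in both other genotypes.

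**Figure D2:**
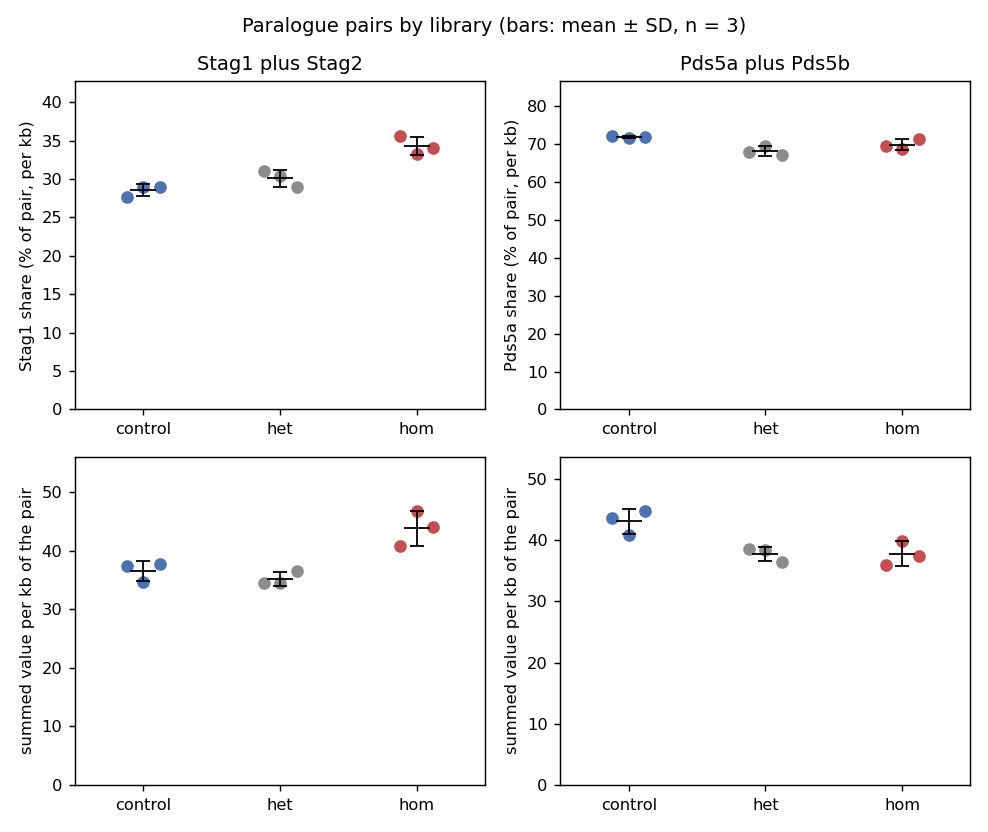
Share of *Stag1* within *Stag1* plus *Stag2* and of *Pds5a* within *Pds5a* plus *Pds5b* (upper panels, percent of the value per kb) and the summed value per kb of each pair (lower panels), with a point for each library and bars for the mean and SD. The *Stag1* share is 33.3% to 35.6% in the 3 homozygotes and 27.7% to 31.0% in the other 6 libraries.

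Over the whole group, 4 of 9 genes were called between homozygotes and controls (1 higher and 3 lower), where 15.2% of all genes were called, 7.19% higher and 8.03% lower. These 4 were also the ones without overlap, 1 above and 3 below the controls, which held for 33.2% of all genes, 16.6% above and 16.5% below. Between homozygotes and heterozygotes 3 of 9 were called (2 higher and 1 lower), against 13.6% of all genes, 6.87% higher and 6.70% lower. Without overlap there were 4 of 9, 3 above and 1 below, against 30.8% of all genes, 15.3% above and 15.5% below. Between heterozygotes and controls 1 of 9 was called, against 0.143% of all genes. Of the 9 genes 3 lay below the controls without overlap and 0 above, against 14.3% of all genes, 7.41% above and 6.93% below. The comparisons share libraries, so their values stand side by side and are not independent. The median log2 fold change of the 9 genes was -0.03, 0.02 and -0.03 in these comparisons, beside medians of 0.00 over all genes.

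**Figure D3:**
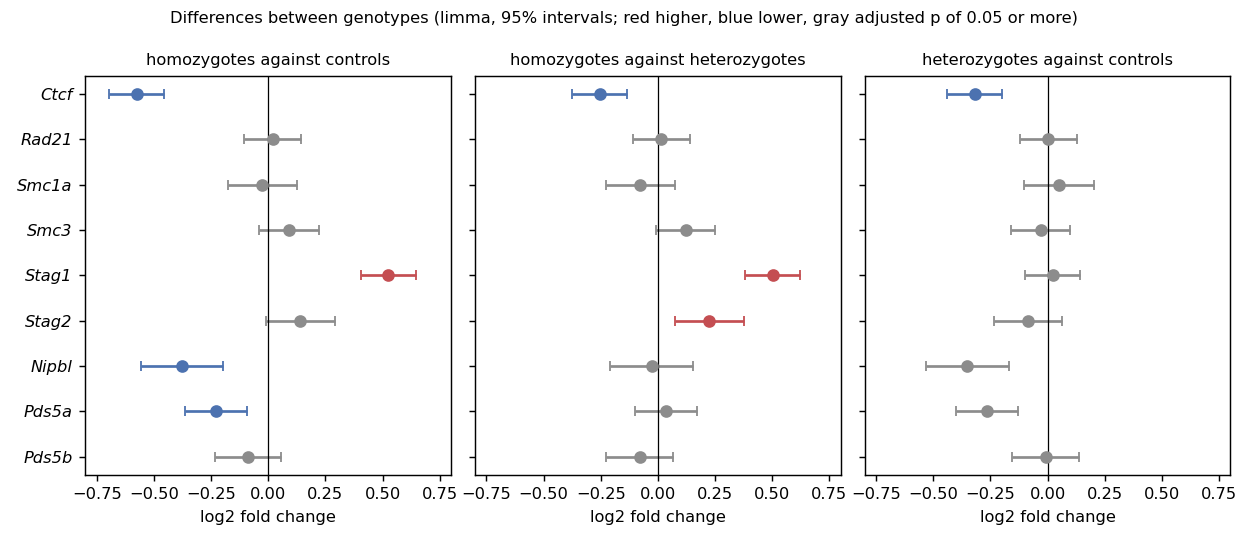
Log2 fold changes of the 9 genes with 95% intervals from limma in the 3 comparisons, with genes called higher in red, called lower in blue and not called in gray. *Ctcf* is called lower in all 3 panels and *Stag1* called higher in both panels with homozygotes, at 0.52 and 0.50, while the intervals of *Rad21* and *Smc1a* cover 0 in each.

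Exonic length was examined because these are long genes. Lengths ran from 3604 bases for *Rad21* to 10266 for *Stag1*, 8 of 9 genes were longer than the median of 3669, and *Stag1*, *Stag2*, *Nipbl* and *Pds5b* belonged to the 1399 longest genes. Of these 25.4% were called lower and 2.07% higher in homozygotes against controls, with a median log2 fold change of -0.16, so the rise of *Stag1* ran opposite to most called genes of its length. With the trend of the values with length removed, the rise of *Stag1* was 0.68 and the fall of *Nipbl* was -0.25, both still called. *Stag2* was then called higher than in controls as well (log2 fold change 0.26, limma adjusted p = 0.0190).

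Compared per kb of exonic length, the levels in controls were ordered from *Rad21* (91.2), through *Smc1a* (36.2), *Smc3* (31.5), *Pds5a* (31.0), *Stag2* (26.1), *Ctcf* (24.99), *Nipbl* (13.9) and *Pds5b* (12.1), to *Stag1* (10.4). Control libraries overlapped between *Smc1a* and *Smc3*, between *Smc3* and *Pds5a* and between *Stag2* and *Ctcf*, and not between the other neighbors in this order. Such overlap does not measure the uncertainty of the exonic lengths, which merge the exons of 17 transcripts for *Stag1* and of 1 for *Rad21*. In homozygotes *Ctcf* stood at 16.8 per kb and *Stag1* at 15.0.

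Within each library, the log2 difference to *Ctcf* moved between controls and homozygotes by 0.20 for *Nipbl*, 0.34 for *Pds5a*, 0.49 to 0.71 for *Pds5b*, *Smc1a*, *Rad21*, *Smc3* and *Stag2*, and 1.10 for *Stag1*. *Ctcf* had the lowest fold change of the 9 genes, so all 8 differences are positive by construction and restate its fall. Libraries overlapped between the 2 genotypes for *Nipbl* and not for the other 7 genes.

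Genes with a course most like that of *Ctcf* over the 9 libraries were ranked by the root mean square difference of centered log2 values among 9846 genes, in which the median was 0.264. The nearest was *Ankrd12* at 0.0712, followed by *Plcg2*, a phospholipase C, at 0.0734, *Scai*, a cofactor that restrains SRF-dependent transcription, at 0.0735, *C1qtnf6* at 0.0780 and *Greb1l* at 0.0868. *Plcg2*, for example, went from 12.8 ± 1.06 in controls to 10.2 ± 0.33 in heterozygotes and 7.98 ± 0.12 in homozygotes (SD, n = 3). *Nipbl* took rank 346 and *Pds5a* rank 510, whereas *Rad21* took rank 4019, *Stag2* rank 7142 and *Stag1* rank 9470.

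The remaining genes of the pathway were given by lists. Of 15 measured cohesin genes outside the 9, such as the acetyltransferase *Esco2*, the releasing factor *Wapal* and separase *Espl1*, 0 were called by limma in any comparison. Of all genes 15.2%, 13.6% and 0.143% were called in the 3 comparisons. An unadjusted p under 0.05 was found for 3, 5 and 1 of the 15, beside 29.6%, 27.6% and 7.37% of all genes. The number called was also 0 by edgeR and DESeq2, and was 1 against controls without homozygote replicate 1 or 2 and 2 against heterozygotes without replicate 1. Their log2 fold changes in homozygotes against controls ran from -0.05 for *Mau2*, the partner of NIPBL in the loader, to 0.29 for *Pttg1*, the securin that holds back separase, with a median of 0.11.

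Of 15 measured genes of condensin, the SMC5/6 complex and the related SMC protein *Smchd1*, relatives of cohesin that act in the structure and repair of chromosomes, 1 was called higher and 1 lower in homozygotes against controls, where 15.2% of all genes were called, with a list median of 0.04. The SMC5/6 subunit *Nsmce4a* had values of 94.3, 91.4 and 84.1 in controls, 86.6, 90.4 and 101.4 in heterozygotes and 62.6, 63.2 and 68.8 in homozygotes. The homozygotes were below all other libraries, and the gene fell against controls (log2 fold change -0.47, SE 0.07, limma adjusted p = 0.00126) and against heterozygotes (-0.51, SE 0.07, limma adjusted p = 0.000890), under all 20 alternatives in both. The condensin II subunit *Ncaph2* was higher than in controls by 0.21 (SE 0.06, limma adjusted p = 0.0293). That call was lost in 7 of 20 alternatives, on leaving out any 1 control library or homozygote replicate 1 or 3 among them (adjusted p of 0.0513 to 0.117).

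Of 15 factors that partner with CTCF or also act at chromatin loops, 1 was called higher and 1 lower against controls, where 15.2% of all genes were called, with a list median of -0.08. *Adnp*, a zinc finger and homeodomain protein of the ChAHP complex, which competes with CTCF for sites, had values of 52.0, 34.9 and 48.2 in controls, 37.7, 24.8 and 36.6 in heterozygotes and 7.38, 25.8 and 21.5 in homozygotes. All homozygotes were below all controls, though replicate 1 was far below the others, and the log2 fold change was -1.44 (SE 0.34, limma adjusted p = 0.0121). The call was lost without the control library of 6698891 reads (adjusted p = 0.0502) and without limma's trend. Without homozygote replicate 1 it was -0.90 (adjusted p = 0.0109). Against heterozygotes *Adnp* was at -0.99 (limma adjusted p = 0.0679), which was -0.45 without homozygote replicate 1 (adjusted p = 0.143) and -1.32 without replicate 2 (adjusted p = 0.0254). *Ybx1*, a DNA and RNA binding protein that can interact with CTCF, went from 848.7 ± 52.0 in controls to 1074 ± 28.5 in homozygotes (SD, n = 3), with a log2 fold change of 0.34 (SE 0.06, limma adjusted p = 0.00269). Under quantile normalization this was 0.19 and not called (adjusted p = 0.0539). Homozygotes against heterozygotes gave 0.33 (limma adjusted p = 0.00356), called in the reported fit and under all 20 alternatives, quantile normalization included.

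As cohesin also acts in cell division, 14 proliferation genes were examined. *Cdk1*, the kinase that drives mitosis, was higher in homozygotes by 0.19 against controls (SE 0.05, limma adjusted p = 0.0273) and by 0.20 against heterozygotes (SE 0.05, limma adjusted p = 0.0200), and the list median was 0.10 and 0.07. *Pcna*, the replication clamp, was called against heterozygotes at 0.24 (SE 0.07, limma adjusted p = 0.0281), and the other 13 and 12 genes were not called, in comparisons with 15.2% and 13.6% of all genes called. All 3 calls were lost without homozygote replicate 2 (adjusted p of 0.0861 and 0.0678 for *Cdk1* and 0.0689 for *Pcna*). The call of *Cdk1* against controls was also lost without any 1 control library (adjusted p up to 0.0772), by DESeq2 (0.0511), without limma's trend (0.0787) and with the replicate block (0.0634), and so held in 13 of 20 settings. Its call against heterozygotes, held in 15 of 20, was also lost without the trend (0.0694) and with the block (0.0506). Those against heterozygotes were lost without the heterozygous library of 7946683 or 4294537 reads (up to 0.0686 for *Cdk1* and 0.104 for *Pcna*), and that of *Pcna* also without homozygote replicate 3 (0.115), with only the 2 genotypes compared in the fit (0.0501), without the trend (0.0994) and with the length trend removed (0.0669), so that it held in 13 of 20.

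**Figure D4:**
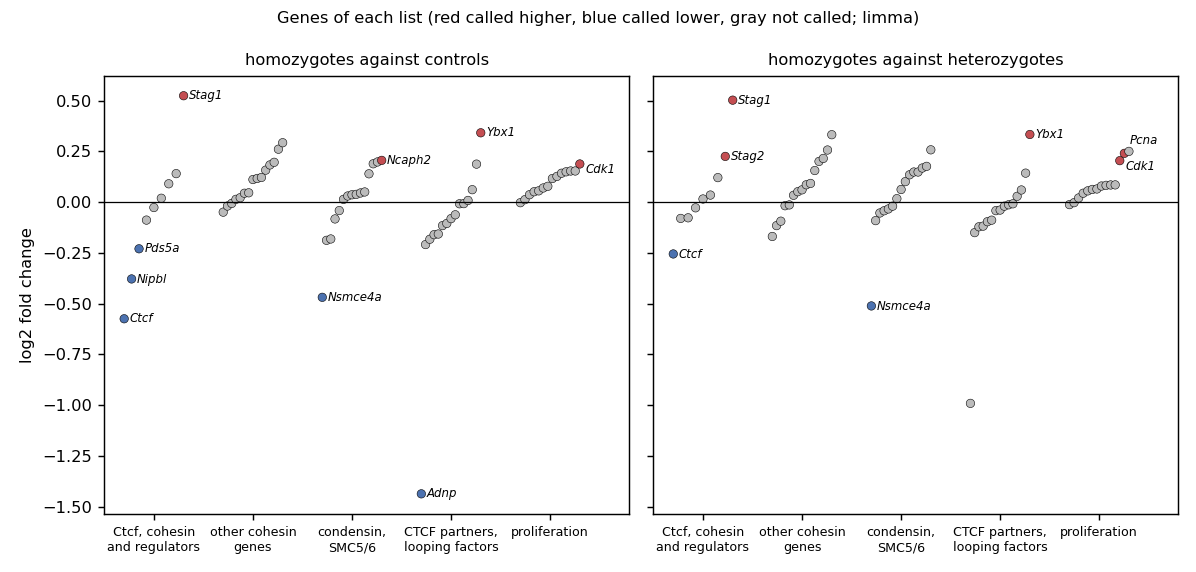
Log2 fold changes (y axis) of the 9 genes and of the genes of 4 lists in homozygotes against controls (left) and against heterozygotes (right), with a point for each gene, called genes named and colored red for higher and blue for lower. *Adnp* is lowest at -1.44 against controls, and *Stag1* is highest in both panels.

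The genes next to the 9 on the chromosome were looked at after the values of the 9 had been seen. Of 18 neighbors, the nearest measured gene on each side, 7 were called between homozygotes and controls, where 15.2% of all genes were, and 3 between homozygotes and heterozygotes, where 13.6% were. *Rltpr*, which lies 3352 bases after *Ctcf* and encodes a regulator of actin capping protein, had values of 1.22, 0.46 and 0.51 in controls, 2.89, 3.97 and 1.96 in heterozygotes and 6.93, 6.69 and 4.01 in homozygotes. It was thus higher where *Ctcf* was lower, without overlap between any 2 genotypes, on 3 to 44 reads in a library. The log2 fold change was 2.39 in homozygotes against controls (SE 0.31, limma adjusted p = 0.000322), on a scale with 0.5 added that understates changes at such levels. Heterozygotes against controls gave 1.49 (SE 0.31, limma adjusted p = 0.139), which was called without the control library of 8457617 reads (1.76, adjusted p = 0.0487) and by DESeq2 (2.13, adjusted p = 0.0230). Homozygotes against heterozygotes gave 0.90 (SE 0.31, limma adjusted p = 0.0754) and were not called under any of 19 alternatives. On the other side of *Ctcf*, *Fam65a* fell by 0.35 against controls (limma adjusted p = 0.00999) and did not pass without the control library of 6698891 reads (adjusted p = 0.0505). *Tmem22*, 26713 bases before *Stag1*, had values of 5.88, 6.15 and 4.60 in controls, 4.76, 4.60 and 3.11 in heterozygotes and 2.61, 1.61 and 1.40 in homozygotes. Homozygotes lay below all other libraries, and the log2 fold change against controls was -1.37 (SE 0.24, limma adjusted p = 0.00251), beside the rise of *Stag1*. *Pccb*, on the other side of *Stag1*, gave -0.03. The other neighbors called against controls were *2410089E03Rik* beside *Nipbl* (-0.35, limma adjusted p = 0.0203), *N4bp2* beside *Pds5a* (-0.31, limma adjusted p = 0.0146), *Xiap* beside *Stag2* (-0.24, limma adjusted p = 0.0116) and *Iqsec2* beside *Smc1a* (0.57, limma adjusted p = 0.0360). The 3 neighbors called against heterozygotes were *Fam65a* (-0.28, limma adjusted p = 0.0324), *Tmem22* (-0.99, limma adjusted p = 0.0173) and *Ribc1*, 133 bases before *Smc1a* (0.86, limma adjusted p = 0.0202), whose difference from controls was 0.50 (limma adjusted p = 0.142). Of these calls, that of *Fam65a* held under 12 of 20 alternatives and that of *Tmem22* under 16 of 19. *Tmem22* had 9 to 60 reads in a library and *Ribc1* 7 to 31. Called neighbors thus moved in the direction of their member as well as against it.

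The 250 bases before the transcription start were taken from the RefSeq promoters (GRCm38.p6) used here, which were matched for *Ctcf*, *Smc1a*, *Smc3*, *Stag1*, *Pds5a* and *Pds5b*. They held 40 CpG for *Ctcf*, 16 for *Smc1a*, 26 for *Smc3*, 31 for *Stag1*, 44 for *Pds5a* and 36 for *Pds5b*, beside a median of 6 over all promoters. That median was not matched for expression. The start of an annotated NCBIM37 transcript was found in the promoter sequence of *Smc1a*, *Smc3*, *Stag1* and *Pds5b*, and not in that of *Ctcf* or *Pds5a*. Promoters of *Rad21*, *Stag2* and *Nipbl* were not analyzed here.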

How the data were processed

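RNA-seq of 9 libraries was analyzed. The authors deposited a table of normalized signal per gene for 14011 genes, made on the NCBIM37 transcriptome. The submitters' processing notes list CASAVA 1.8, cutadapt 1.6.1, Bowtie2 0.12.7, RSEM 1.20 and limma, without their roles. The deposited signal equaled whole reads plus 0.5 in 100% of values (tolerance 0.05 reads), scaled by TMM-adjusted library size (factors 0.955 to 1.03), with 4294537 to 11629365 reads per library. Columns were assigned to genotypes through the growth protocol and the group averages given with the study, which matched the means of the columns for all 1998 genes compared in controls and in homozygotes and all 787 in heterozygotes. Within each genotype, every pair of libraries differed by more than counting noise (chi-square divided by its degrees of freedom, 3.33 to 7.35).

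Log2(value + 0.5) was analyzed by limma 3.58.1 (R 4.3.3) in 1 fit of 9 libraries that allowed the variance to follow the mean. p-values were adjusted over all 14011 genes by the Benjamini-Hochberg method, and calls were made at an adjusted p under 0.05. Paralogue differences were compared by exact permutation tests. Alternatives were pseudocounts of 0.1 and 1, a mean value of at least 10, 2-group fits, quantile normalization, no trend, edgeR 4.0.16, DESeq2 1.42.0 and voom on whole reads, values freed of their dependence on exonic length, a replicate block, a threshold of 0.01 and leaving out each library. Methods were tested on simulated data. Named genes were the 9, the called genes of each list (at most 6) and the 5 most like *Ctcf*. Chromosomal neighbors were chosen later, with their values in view. The 9 genes and the lists were chosen with earlier results of these data known. Coordinates came from GENCODE M1. Read counting by strand is not given in the sources used here.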

Additional observations from a re-analysis of the deposited data

How the results depend on the processing

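Of the calls among the 9 genes, those of *Ctcf* and *Stag1* in homozygotes against controls and against heterozygotes were made under all 20 alternatives. Between homozygotes and controls 4 genes were called, and 2 without limma's trend. Between heterozygotes and controls the count of 1 became 0 with a pseudocount of 0.1, a fit of only the 2 groups, quantile normalization, no trend, the length trend removed, a replicate block or a threshold of 0.01, and was 0 to 0 on leaving out each library. Genes without a call changed sign at small values. With each library left out in turn, the log2 fold changes that took both signs ran as follows. In homozygotes against controls, *Rad21* ran from -0.00641 to 0.0602 and *Smc1a* from -0.0907 to 0.0280. In homozygotes against heterozygotes, *Rad21* ran from -0.0101 to 0.0565, *Nipbl* from -0.0942 to 0.0610 and *Pds5a* from -0.00346 to 0.0742. In heterozygotes against controls, *Rad21* ran from -0.0325 to 0.0272, *Smc1a* from -0.0134 to 0.105, *Smc3* from -0.0788 to 0.00803, *Stag1* from -0.00654 to 0.056 and *Pds5b* from -0.0386 to 0.0205. Under quantile normalization, the sign changed for *Rad21* (-0.0106, homozygotes against controls) and *Rad21* (-0.0115, heterozygotes against controls). By DESeq2, the sign changed for *Rad21* (-5.22e-05, heterozygotes against controls). With the length trend removed, the sign changed for *Rad21* (-0.00304, heterozygotes against controls), *Smc1a* (0.0392, homozygotes against controls), *Nipbl* (0.0634, homozygotes against heterozygotes), *Pds5b* (0.0558, homozygotes against controls), *Pds5b* (0.0171, homozygotes against heterozygotes) and *Pds5b* (0.0387, heterozygotes against controls). Between homozygotes and controls, the change of *Pds5b* minus *Pds5a* moved from 0.14 to 0.264 and that of *Stag1* minus *Ctcf* from 1.10 to 1.22 with the length trend removed, and that of *Rad21* minus *Ctcf* from 0.59 to 0.54 under quantile normalization. The cause was not tested.

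Same-numbered libraries did not deviate together (correlation -0.14 to 0.13 over 9 pairs, best with the own number in 4 of 18 comparisons), and with the replicate block 3, 2 and 0 of the 9 genes and 1756, 1553 and 15 of all genes were called. Over all genes 2133, 1901 and 20 were called in the 3 comparisons, 1196, 1063 and 10 without the trend and 40 by DESeq2 between heterozygotes and controls. Leaving out single libraries gave as few as 1049 between homozygotes and controls (without the control library of 6698891 reads) and 1023 between homozygotes and heterozygotes (without homozygote replicate 3). At 3 pools a group, exact tests cannot go below 0.1.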
